A study of Mus musculus with 10 samples.

Results

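The AP-1 and EGR immediate-early genes examined here are 10 transcription factor genes, *Fos*, *Fosb*, *Fosl1* and *Fosl2* of the FOS family, *Jun*, *Junb* and *Jund* of the JUN family, and *Egr1*, *Egr2* and *Egr3* of the EGR family, chosen by gene symbol from a table of 55426 genes. All 10 were found in the table, and 9 of the 10 were expressed highly enough to be tested, *Fosl1* being the exception. Thoracic aortas came from 3 control mice of the genotype Prdm16f/f and 3 Prdm16SMKO mice of the genotype Prdm16f/f, SMMHC-CreERT2, and their poly(A) RNA was sequenced. The floxed *Prdm16* allele is therefore shared by both groups, whereas the tamoxifen-activated Cre, driven by the smooth muscle myosin heavy chain promoter from a transgene on the Y chromosome, is present only in the Prdm16SMKO labels (the study's methods also list mice with Cre alone as controls), and cells of the aorta other than smooth muscle keep *Prdm16*. The mice were male, on a C57BL/6J background, and the age of these particular animals and the hour at which their aortas were taken are not given in the sources used here. Binding was measured separately, by ChIP-Seq with an anti-Flag antibody in primary wild-type vascular fibroblasts. These cells had received either a lentivirus that makes PRDM16 with a Flag tag or a control virus with no insert, with 48 hours of infection and 1 week of selection in puromycin at 2 μg/mL, and each condition had 1 library.

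AP-1 is a dimer of a FOS protein with a JUN protein, or of JUN proteins with each other, that binds a short palindromic DNA site. EGR proteins are zinc finger factors that bind GC-rich sites. Serum, stretch and growth factors can switch most of these genes on within minutes through MAP kinases, serum response factor and CREB, without new protein synthesis, and in smooth muscle they are known for their early part in the response to injury. PRDM16, the factor deleted in these mice, is a zinc finger transcriptional regulator best known from brown fat.

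Expression is given as TPM, a share of all transcripts in an aorta that corrects for transcript length, which allows genes to be compared within an aorta. TPM keep no record of sequencing depth, so depth is unknown here. The check of the deleted gene comes first. *Prdm16* was at 56.1, 47.6 and 40.3 TPM in the 3 control aortas and at 23.3, 33.3 and 23.4 TPM in the 3 Prdm16SMKO aortas, so the groups did not overlap and the mean in Prdm16SMKO aortas was 55.6% of the control mean. Its log2 fold change was −0.85 (SE 0.18), with a Benjamini-Hochberg adjusted p of 0.0725 in limma on log2(TPM + 0.1), above the threshold of 0.05, and with an adjusted p of 0.0239 after rescaling the aortas by median ratio. The smooth muscle markers *Myh11*, *Acta2* and *Tagln* were among the tested genes in every aorta, with *Acta2* between 6455 and 12433 TPM, so the label of aortic tissue fits its markers.

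None of the 9 tested genes passed that threshold (limma, adjusted p), against 168 of all 15668 genes tested, 1.07%. The study itself lists *Fosl2* and *Jun* among its differentially expressed genes with a PRDM16 promoter peak, both lower in Prdm16SMKO aortas. It also lists *Nr4a1* and *Atf3*, described below, as lower and *Mapk7* as higher. Its text does not name the test behind that list. At an unadjusted p under 0.05, *Fosl2* and *Jun* were lower in Prdm16SMKO aortas, where 9.45% of all genes were, and *Junb* and *Egr2* were higher, where 3.22% of all genes were. The groups did not overlap for *Fosl2* and *Jun*, lower in every Prdm16SMKO aorta than in any control aorta as were 14.9% of all genes, or for *Egr2*, higher in every Prdm16SMKO aorta as were 4.08% of all genes. The median log2 fold change was 0.09 over the 9 genes, 5 of them above 0 and 4 below, and −0.12 over all genes tested. That shift of all genes became 0.0046 after median-ratio rescaling, so fold changes relative to the median of all genes are also given below. The p-values measure the spread between aortas labelled as separate samples.

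Levels spanned a wide range. In control aortas the order by mean TPM was *Jund* (354 ± 79.3, SD, n = 3), *Jun* (140 ± 34.2), *Egr1* (60.8 ± 16.9), *Fosl2* (45.3 ± 6.47), *Fos* (40.1 ± 31.5), *Junb* (23.1 ± 4.01), *Fosb* (13.5 ± 4.39), *Egr3* (5.17 ± 0.356), *Egr2* (1.46 ± 0.164) and *Fosl1* (0.157 ± 0.155). The ranges of neighbours in that order overlapped for *Egr1* and *Fosl2*, for *Fosl2* and *Fos*, and for *Fos* and *Junb*, and for no other pair of neighbours. In Prdm16SMKO aortas *Jund* (307 ± 60.1, SD, n = 3) and *Jun* (87.9 ± 13.3) again stood first, followed by *Egr1* (68.0 ± 15.4), *Junb* (33.7 ± 8.42), *Fosl2* (30.4 ± 4.07), *Fos* (20.7 ± 7.76), *Fosb* (14.6 ± 5.66), *Egr3* (6.24 ± 1.64), *Egr2* (2.97 ± 1.55) and *Fosl1* (0.473 ± 0.214). There *Junb* stood ahead of *Fosl2* and *Fos*, although its range still overlapped that of *Fosl2*. The plot of TPM by aorta shows each value.

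**Figure D1:**
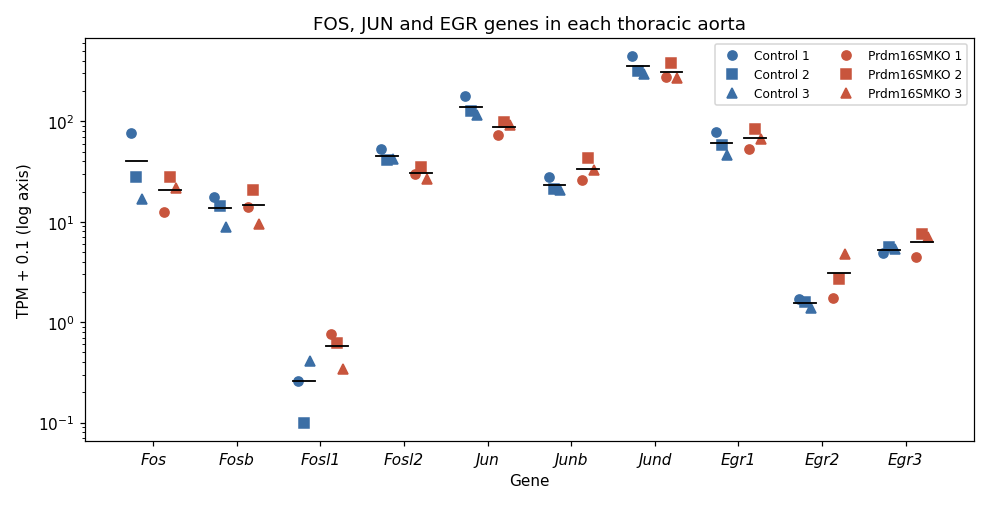
TPM + 0.1 of the 10 genes in each thoracic aorta, on a log axis, with controls in blue, Prdm16SMKO in red, 1 marker shape per replicate number (the labels give no pairing) and a black line at each group's mean (n = 3). *Fosl2* and *Jun* lie lower in all 3 Prdm16SMKO aortas than in any control, *Egr2* lies higher in all 3, and *Fos* has 1 control aorta at 75.9 TPM, far above the other values.

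Among the FOS genes, *Fosl2* separated the groups and *Fos* did not. *Fosl2* encodes FRA2, a FOS family protein that persists longer after stimulation than FOS itself. It was at 52.8, 41.2 and 42.0 TPM in control aortas and at 29.8, 34.8 and 26.7 TPM in Prdm16SMKO aortas. Every Prdm16SMKO aorta was thus below every control aorta. The log2 fold change was −0.57 (SE 0.15, 95% interval −0.92 to −0.23), a mean of 67.0% of the control mean, with an unadjusted p of 0.00418 and an adjusted p of 0.137 in limma. Relative to the median of all genes the log2 fold change was −0.46. After median-ratio rescaling and quantile normalization it was −0.45 and −0.43, with adjusted p-values of 0.0325 and 0.0471, so both settings called *Fosl2*, and over all 15 settings its adjusted p ran from 0.0325 to 0.371 with no change of direction.

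*Fos*, the partner of JUN in the classic AP-1 dimer, was at 75.9, 27.6 and 16.7 TPM in control aortas and at 12.4, 27.8 and 21.8 TPM in Prdm16SMKO aortas. The groups overlapped, and control 1 held 3.43 times the mean of the other 2 control aortas. The log2 fold change was −0.74 with an SE of 0.50 (adjusted p = 0.577, limma), the widest SE of the 9 genes, and without control 1 it was −0.13. Its 95% interval ran from −1.87 to 0.40. *Fosb*, which encodes a further FOS partner, was at 17.5, 14.3 and 8.79 TPM against 13.8, 20.6 and 9.35 TPM, with overlapping groups. Its log2 fold change was 0.09 (SE 0.32, adjusted p = 0.939, limma). *Fosl1*, which encodes FRA1, was at 0.16, 0 and 0.31 TPM in control aortas and at 0.66, 0.52 and 0.24 TPM in Prdm16SMKO aortas, under the mean of 0.5 TPM required for testing.

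In the fibroblasts 3 of the 4 FOS genes had a PRDM16 promoter peak, meaning a peak of the deposited list centred within 2 kb of a curated RefSeq transcription start on GRCm38. *Fosl2* held 3 peaks. Its promoter peak at chr5:32136197-32136442 was centred 153 bp upstream of the start, with a deposited fold enrichment over local background of 4.22, and a peak at chr5:32134921-32135237 was centred 1393 bp upstream, with a fold enrichment of 6.33. A peak at chr5:32151335-32151590, lay in an intron 14990 bp downstream of the start, with 3.87. The sequences below are read from RefSeq GRCm38 on the strand of the gene, 5′ to 3′, with matches to the EGR site GCGNGGGCG in capitals. They are shown because the promoter peak's summit lies 2 bp before an EGR site, and because the stronger peak has none in the 101 bases around its summit:

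Fosl2 promoter peak summit, chr5:32136383-32136411, plus strand: ccggctgcgcGCGGGGGCGgaagggcgcg

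Fosl2 upstream peak summit, chr5:32135014-32135114, plus strand: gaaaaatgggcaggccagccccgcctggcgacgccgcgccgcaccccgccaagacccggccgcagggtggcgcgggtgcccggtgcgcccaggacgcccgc

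Of all 11258 peaks scanned, 3.61% held the EGR site, on either strand, in the 101 bases around the summit and 15.4% held it anywhere in the peak. A match is a description of the letters and shows no binding by an EGR protein. The *Fos* peak at chr12:85472078-85472543 was centred 1580 bp upstream of the start, with a fold enrichment of 7.03, above that of 82.4% of the list. The 2 *Fosl1* peaks had fold enrichments of 5.98 and 7.06, the first at chr19:5447454-5449011 covering the transcription start and 1558 bp long, the second lying past the end of the gene and nearer to the start of *Ccdc85b*. *Fosb* held no peak, and its nearest peak was 22.9 kb upstream. The RefSeq promoter of *Fosb*, 250 bases before to 50 after the start, holds an EGR site at positions −50 to −42, as did 5.55% of all RefSeq promoters of that length at some position, and it is shown because it has the letters of the *Fosl2* site without a peak:

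Fosb promoter, chr7:19310077-19310105, minus strand: tgacgcaagcGCGGGGGCGggtcccggag

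Among the JUN genes, *Jun* was lower and *Junb* higher in Prdm16SMKO aortas at an unadjusted p under 0.05, and neither passed the adjusted test. *Jun* encodes the principal transactivating partner in AP-1. It was at 179, 125 and 115 TPM in control aortas and at 73.4, 99.4 and 90.9 TPM in Prdm16SMKO aortas. All 3 Prdm16SMKO aortas lay below all 3 controls. The log2 fold change was −0.65 (SE 0.18, 95% interval −1.07 to −0.24), a mean of 63.0% of the control mean, with an unadjusted p of 0.00636 and an adjusted p of 0.171 in limma. Relative to the median of all genes it was −0.54. Over all 15 settings its log2 fold change ran from −0.78 to −0.46 and its adjusted p from 0.113 to 0.454.

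*Junb*, which encodes a JUN protein known to activate less strongly than JUN and to oppose it in some settings, was at 27.7, 21.1 and 20.5 TPM in control aortas and at 25.9, 42.6 and 32.4 TPM in Prdm16SMKO aortas. The groups overlapped through control 1 and Prdm16SMKO 1. The log2 fold change was 0.53 (SE 0.20, unadjusted p = 0.0274, adjusted p = 0.317, limma), and 0.64 relative to the median of all genes. *Jund*, whose product is the constitutive member of the family, was the most abundant of the 10 genes, at 445, 319 and 299 TPM against 275, 377 and 270 TPM. Its log2 fold change was −0.20 (SE 0.18, adjusted p = 0.691, limma), and −0.08 relative to the median of all genes. In this bulk tissue, fewer cells of a type and less RNA per cell cannot be told apart for any of these genes. In the GENCODE annotation *Jun* and *Jund* overlap the antisense genes *Junos* and *Gm11175*. *Junb* overlaps the protein-coding gene *Prdx2* on the other strand, and *Fosl1* likewise overlaps *Ccdc85b*. Whether reads were counted by strand is not given in the sources used here.

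Ratios between 2 genes within an aorta do not depend on how aortas are scaled against each other. The ratio of *Jun* to *Junb* was 6.45, 5.94 and 5.62 in control aortas and 2.83, 2.33 and 2.80 in Prdm16SMKO aortas. The 2 groups lay far apart compared with the spread within each, and the mean log2 ratio in Prdm16SMKO aortas minus that in controls was −1.18. *Jun* to *Jund* was 0.401, 0.392 and 0.385 against 0.267, 0.264 and 0.337, and *Junb* to *Jund* was 0.0622, 0.0660 and 0.0685 against 0.0942, 0.113 and 0.120. All 3 JUN ratios thus separated the groups, and the separation of *Jun* to *Junb* follows from that of the other 2. Of the 9 ratios within the 3 families, 6 did, where 20.7% of all pairs of tested genes did. In an exact two-sided permutation test of 3 aortas against 3 each of the 6 had p = 0.1, the smallest value this design allows, and 0.15 after Benjamini-Hochberg adjustment over the 9 ratios. The 9 share genes and aortas and were chosen after the values were seen.

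**Figure D2:**
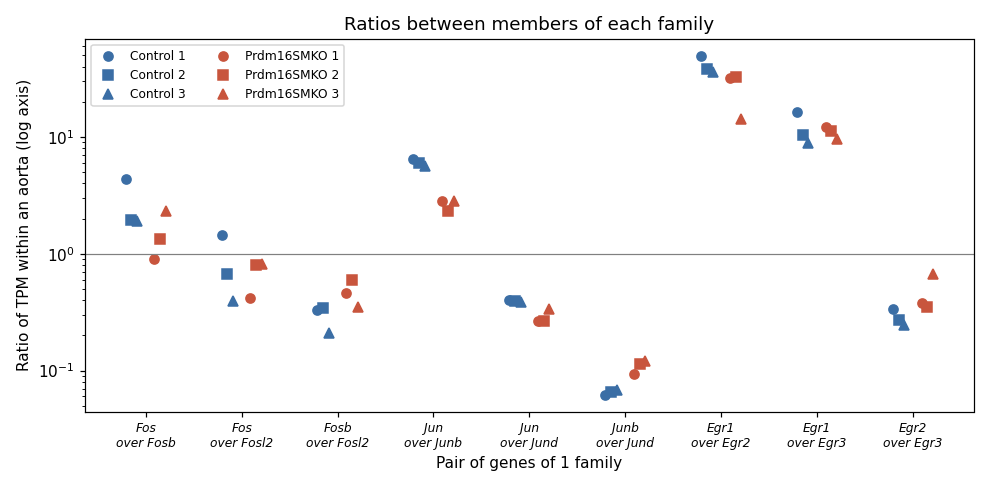
Ratio of TPM of 2 genes of 1 family within each aorta, on a log axis, with controls in blue and Prdm16SMKO in red, 1 marker per aorta. The ratio of *Jun* to *Junb* lies between 5.62 and 6.45 in the controls and between 2.33 and 2.83 in the Prdm16SMKO aortas, and the other 2 JUN ratios also separate the groups.

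*Jun* carried the strongest PRDM16 binding of the 10 genes. It held 3 peaks, as did *Fosl2* and *Egr2*, and 580 of 12551 tested genes with a curated start (4.62%) held at least 3 peaks in the gene or within 2 kb. The largest, at chr4:95050316-95052142, was 1827 bp long, covered most of the single-exon gene from 80 bp after its start, and had a fold enrichment of 9.49, above that of 95.8% of the list, and a −log10 q of 17.0. A second at chr4:95052574-95053120, centred 625 bp upstream, had a fold enrichment of 6.68, and another at chr4:95053511-95053800, centred 1433 bp upstream, had 5.98. The 101 bases around the summit of the second are shown because they hold an EGR site, in capitals, next to a run of TG repeats:

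Jun upstream peak summit, chr4:95052652-95052752, minus strand: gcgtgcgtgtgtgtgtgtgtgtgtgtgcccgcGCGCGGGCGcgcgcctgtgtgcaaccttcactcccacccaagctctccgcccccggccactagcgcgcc

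*Junb* had a peak over its coding exon at chr8:84977658-84978554, centred 642 bp after the start, whose fold enrichment of 3.49 was the lowest of all 17 peaks, and another past its 3′ end with 5.27. *Jund* had a single peak over its coding exon at chr8:70699701-70700286, with a fold enrichment of 3.87. It was centred 2254 bp after the RefSeq start of *Jund*, just outside the 2 kb window, and nearer to a start of *Iqcn*, at 2032 bp. The same peak falls within 2 kb of a *Jund* start in GENCODE vM21. No AP-1 site (TGANTCA) or cyclic AMP response element (TGACGTCA) was found in any peak of *Jun*, *Junb* or *Jund*. Most peaks of the list lack both, as 9.98% of all peaks scanned held the AP-1 site and 0.799% the response element. The peak over the start of *Fosl1* did hold matches to the AP-1 site.

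All 3 EGR genes had a log2 fold change above 0, with *Egr2* alone separating the groups. *Egr2*, which encodes KROX20, known from hindbrain and Schwann cells, was at 1.6, 1.5 and 1.28 TPM in control aortas and at 1.65, 2.58 and 4.67 TPM in Prdm16SMKO aortas. Prdm16SMKO 1 lay just above control 1, so the separation rests on a narrow gap, while Prdm16SMKO 3 was far higher. The log2 fold change was 0.86 (SE 0.37, 95% interval 0.02 to 1.70, unadjusted p = 0.0457, adjusted p = 0.381, limma), on a scale that understates the change of so low a gene, and without Prdm16SMKO 3 it was 0.48. *Egr1*, an early growth response factor induced in vessels by injury and shear, was at 79.1, 57.5 and 45.7 TPM against 53.1, 83.8 and 67.0 TPM, with a log2 fold change of 0.17 (SE 0.22, adjusted p = 0.792, limma). *Egr3*, a related factor, was at 4.80, 5.51 and 5.20 TPM against 4.37, 7.43 and 6.92 TPM, with a log2 fold change of 0.23 (SE 0.22, adjusted p = 0.703, limma). For both the groups overlapped, and the control values of *Egr3* varied little.

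**Figure D3:**
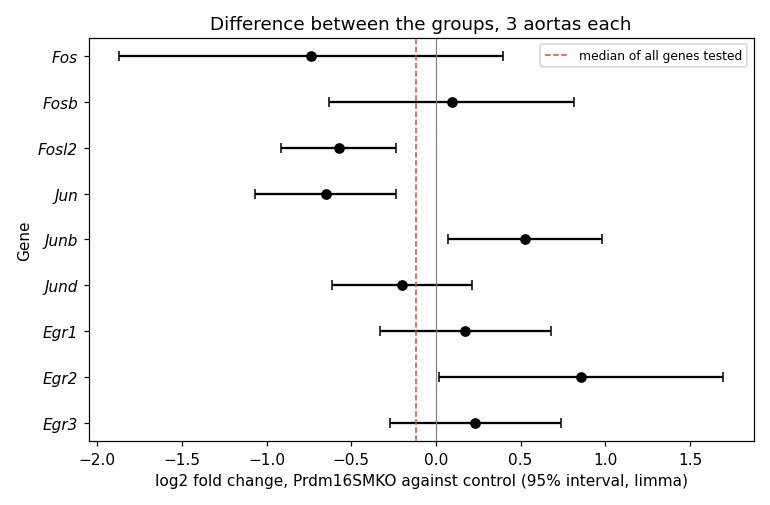
log2 fold change of the 9 tested genes, Prdm16SMKO against control aortas (n = 3 each), with 95% intervals from limma, a grey line at 0 and a dashed line at the median of all genes tested (−0.12). The intervals of *Fosl2* and *Jun* lie below 0 and those of *Junb* and *Egr2* above 0, and no adjusted p is under 0.05.

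Each EGR gene had a PRDM16 promoter peak. *Egr2*, with 6 annotated starts, held peaks at chr10:67535344-67536034, over its first start, at chr10:67536384-67537026 and at chr10:67538896-67539270, with fold enrichments of 4.34, 4.10 and 3.53, all below the list's median of 5.27. The *Egr3* peak at chr14:70075164-70075957, centred 1757 bp upstream of the start, was stronger, at 6.51, with an EGR site beginning 21 bp from its summit. The *Egr1* peak, in an intron 1096 bp after the start, had 4.57. A CArG box, the site of serum response factor, was found in 1.63% of all RefSeq promoters of 300 bases, and among the 7 members with an entry (*Fos*, *Fosb*, *Fosl2*, *Jun*, *Junb*, *Jund* and *Egr2*) it was matched in *Egr2* alone. A box more than 250 bases before a start lies outside this promoter scan, so a gene without a match here may still have one. The *Egr2* box shown lies at positions −72 to −63 from one of the later starts. A further *Egr2* box, not shown, lies at −72 to −63, −73 to −64 and −133 to −124 from starts farther downstream. No PRDM16 peak covers either box. The box below is in capitals and is shown because serum response factor is the textbook route by which such genes are switched on:

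Egr2 promoter, chr10:67537466-67537565, plus strand: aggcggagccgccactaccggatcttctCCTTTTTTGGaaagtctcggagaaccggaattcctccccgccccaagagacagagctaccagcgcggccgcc

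Over all 10 genes, 8 had a PRDM16 promoter peak, 7 of them among the 9 tested genes, where 43.8% of the 12551 tested genes with a curated start had one. The 17 peaks in or within 2 kb of the genes, of 11271 in the list, had fold enrichments of 3.49 to 9.49, with 9 above the list's median. None overlapped any of the 67 peaks of the vector library. That list is so short beside the 11271 PRDM16 peaks that few peaks of any genes could overlap it, so the absence says little about these 17. Promoter peaks were present at *Jun* and *Fosl2*, with log2 fold changes of −0.65 and −0.57, at *Junb* and *Egr2*, with 0.53 and 0.86, and at *Fos*, *Egr1* and *Egr3*, with −0.74, 0.17 and 0.23, none of which passed the adjusted test. The peaks are those of fibroblasts that made the tagged protein from a virus, not of smooth muscle, and have no replicate. The count of 8 became 5 with a 1 kb window and 3 with a window from 1 kb upstream to 100 bp downstream. The share of all genes was computed for the 2 kb window only, so these counts cannot be set against a background. The map of the peaks shows their place relative to each start.

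**Figure D4:**
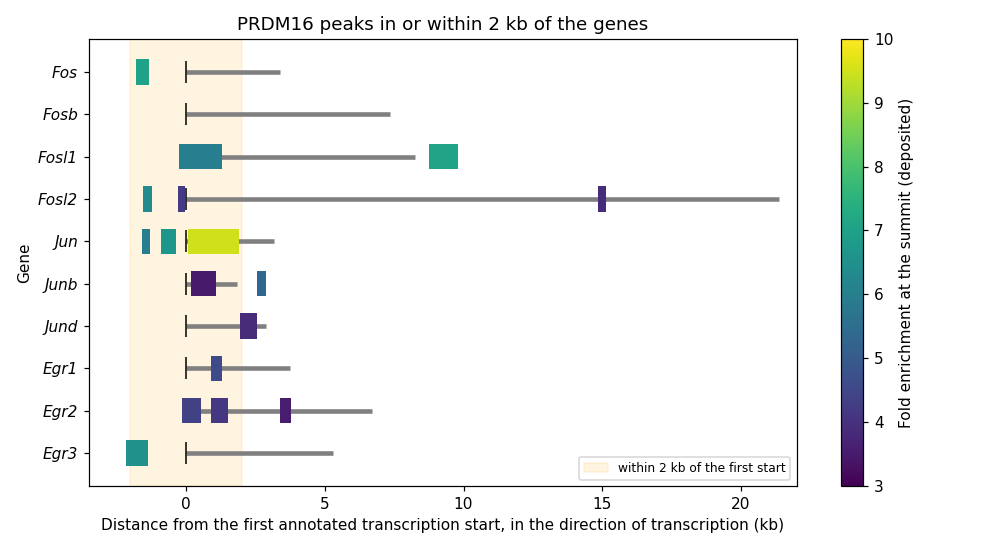
PRDM16 peaks (coloured blocks, by deposited fold enrichment) along each gene (grey line from its first annotated RefSeq start, black tick, to its end), in kb in the direction of transcription, with the 2 kb on either side of the first start shaded. *Jun* has the block with the highest fold enrichment (9.49), lying over the gene, and *Fosb* has none.

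The order of aortas within a genotype was similar for most members, and much of that order was shared with all genes. Control 1 was the highest control aorta for 8 of the 9 tested members, *Egr3* being the exception, and for 66.5% of all genes tested, and control 3 was the lowest for 7 members and 53.6% of all genes. Prdm16SMKO 2 was the highest Prdm16SMKO aorta for 8 of the 9, with *Egr2* the exception, and for 60.7% of all genes. Prdm16SMKO 1 was the lowest for 6 members and 28.6% of all genes. Whether the members differ in this from other genes was not tested. Averaged over the 9 genes, the deviation of log2(TPM + 0.1) from the mean of the 6 aortas was 0.38, −0.04 and −0.30 in controls 1 to 3 and −0.34, 0.28 and 0.01 in Prdm16SMKO 1 to 3. The values of this average overlapped between the groups. As a description over 6 aortas that share a scale, Pearson's r was 0.92 for *Jun* and *Fosl2*, 0.89 for *Jund* and *Fos*, 0.88 for *Jun* and *Fos*, 0.82 for *Egr1* and *Junb*, and −0.70 for *Egr2* and *Fosl2*. These are the highest values and the lowest among the pairs of the 9 genes. They pool both groups, so they also carry the group differences given above.

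**Figure D5:**
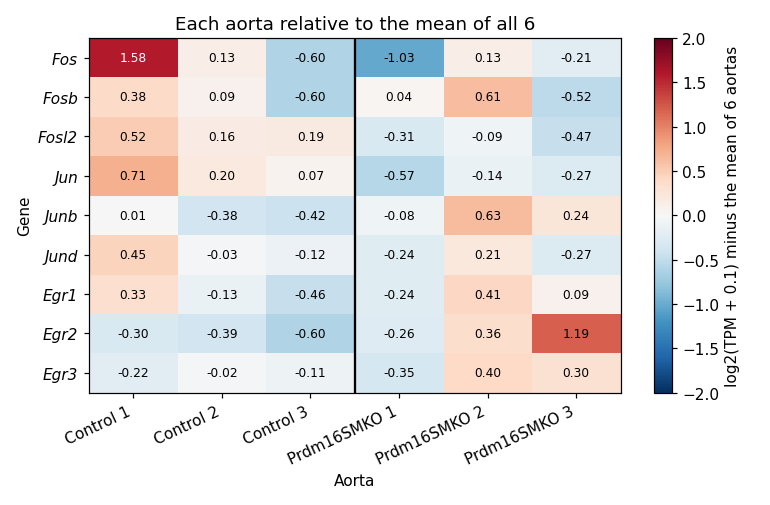
Deviation of log2(TPM + 0.1) from the mean of the 6 aortas for each of the 9 tested genes (rows) in each aorta (columns, the black line parting controls from Prdm16SMKO), red above and blue below the mean. Control 1 is red for 7 of the genes and Prdm16SMKO 2 for 7, while *Fosl2* and *Jun* are above the mean in all 3 controls and below it in all 3 Prdm16SMKO aortas.

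The 5 genes outside the lists whose log2(TPM + 0.1) followed that average most closely over the 6 aortas were *Gm42991* (r = 0.995), *Odf2* (r = 0.992), *Polg2* (r = 0.990), *Pank4* (r = 0.988) and *Gm48552* (r = 0.988). Their mean levels were 0.913, 30.03, 3.61, 14.3 and 1.83 TPM. With 6 points and 15668 genes such values are found by search, and they are given without a test.

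Levels of other cell types moved between the aortas as well. The summed TPM of 6 blood markers, which include the hemoglobin genes, was 2761, 576 and 1609 in control aortas and 454, 1591 and 1220 in Prdm16SMKO aortas. It was highest in control 1, where *Fos* was also highest, and lowest in Prdm16SMKO 1, where *Fos* was also lowest. The order differed among the other aortas. Control 3 had more of the blood markers than control 2 (1609 against 576) but less *Fos* (16.7 against 27.6 TPM). The sum of 8 smooth muscle markers, led by *Acta2*, was 20792 to 24248 in controls and 13889 to 17933 in Prdm16SMKO aortas, without overlap and with 0 of the 8 called and a median log2 fold change of −0.32. Of the 8, 6 had a log2 fold change below 0 and 2 above, *Des* (0.45) and *Myocd* (0.25). The groups did not overlap for 4 that were lower and for *Des*, which was higher. The 6 brown adipocyte markers summed to 127 to 567 TPM in controls and 138 to 446 TPM in Prdm16SMKO aortas, the 6 endothelial markers to 90.9 to 114 and 65.6 to 140, the 6 fibroblast markers to 926 to 1171 and 789 to 1127, and the 6 macrophage markers to 54.5 to 77.2 and 42.2 to 74.3. The 6 skeletal muscle markers (*Myh4* at 0 in 5 aortas) reached 15.1 TPM at most, the 4 nerve and Schwann cell markers, among which *Sox10* was near 1 TPM, 13.7, and the 4 T and B cell markers 1.13. None of these markers was called by limma, 7 being lower and 2 higher at an unadjusted p under 0.05, and their part in the values of the 10 genes was not tested.

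Among genes around AP-1 and EGR the share called was near that of all genes, 1.07%. Of 91 further genes in lists of dimer partners, EGR corepressors, inputs, feedback regulators, other immediate-early genes and genes with known AP-1 or EGR sites, 85 were tested and 1 passed, *Nr4a1*, with 50 log2 fold changes below 0 and 35 above and a median of −0.07. *Nr4a1*, a nuclear receptor induced by the same stimuli, was at 110, 110 and 85.1 TPM in control aortas and at 29.9, 51.8 and 42.3 TPM in Prdm16SMKO aortas. It fell by 1.32 on the log2 scale (SE 0.20, adjusted p = 0.0198, limma), with no overlap between the groups. Its adjusted p was 0.0861 without control 1, 0.0682 without control 2, 0.0571 without the filter on low values and 0.128 without the mean-variance trend, so the call depends on those choices.

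Among 13 dimer partners and relatives, 0 of 11 tested passed (limma; 2 were lower and 1 higher at an unadjusted p under 0.05), with a median log2 fold change of −0.10. *Atf3*, a stress-induced partner of JUN, was at 106, 52.5 and 48.9 TPM in control aortas and at 33.0, 43.8 and 31.2 TPM in Prdm16SMKO aortas, again highest in control 1 (log2 fold change −0.86, SE 0.28, adjusted p = 0.235, limma). *Maff*, a small MAF protein, was at 15.2, 15.9 and 18.4 TPM against 21.3, 26.9 and 26.5 TPM, every Prdm16SMKO aorta above every control (log2 fold change 0.59, SE 0.15, adjusted p = 0.117, limma). Of the 17 inputs, such as kinases and serum response factor, 0 passed (1 higher and 0 lower at an unadjusted p under 0.05), with a median log2 fold change of −0.07. There *Mapk7*, the kinase ERK5, had the largest log2 fold change (0.48, SE 0.14, adjusted p = 0.201, limma) and *Crem* the lowest (−0.42, SE 0.19, adjusted p = 0.395, limma), and *Srf* itself was at 94.4, 81.9 and 74.4 TPM against 75.0, 83.8 and 61.4 TPM. *Mapk7* was called after median-ratio rescaling (adjusted p = 0.0408, limma) and quantile normalization (adjusted p = 0.0442).

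Of the EGR corepressors, which bind EGR proteins, *Nab1* had a log2 fold change of −0.21 (SE 0.12) and *Nab2* of 0.02 (SE 0.13). Their adjusted p-values were 0.486 and 0.971 in limma, and *Egr4* was listed at 0 in all 6 aortas. Of 14 feedback regulators 13 were tested and 0 passed (3 lower and 0 higher at an unadjusted p under 0.05), with a median log2 fold change of −0.03. *Dusp6*, a phosphatase that switches ERK off, was at 10.3, 10.4 and 9.16 TPM in control aortas and at 4.73, 5.86 and 7.77 TPM in Prdm16SMKO aortas (log2 fold change −0.72, SE 0.20, adjusted p = 0.162, limma), without overlap. *Spry4*, another inhibitor of the pathway, had a log2 fold change of 0.21 (SE 0.29, adjusted p = 0.805, limma).

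Of 20 genes with known AP-1 or EGR sites, 18 were tested and 0 passed (3 lower and 2 higher at an unadjusted p under 0.05), and they pointed both ways, with a median log2 fold change of −0.07. *Edn1*, which encodes the vasoconstrictor endothelin 1, was at 8.09, 5.45 and 5.45 TPM in control aortas and at 2.69, 1.67 and 0.85 TPM in Prdm16SMKO aortas (log2 fold change −1.92, SE 0.38, adjusted p = 0.0567, limma). The groups did not overlap. *Edn1* passed without Prdm16SMKO 1 (adjusted p = 0.0265, limma) and with a filter at a mean of 1 TPM (adjusted p = 0.0456), and over all 15 settings its log2 fold change stayed below 0.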

How the data were processed

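RNA-Seq of 6 thoracic aortas (3 control, 3 Prdm16SMKO) and anti-Flag ChIP-Seq of 2 fibroblast libraries were used, grouped by the titles of the samples. The RNA-Seq values are TPM per gene and aorta as deposited, under column names (WT or KO with a number) that were matched to the Control and Prdm16SMKO titles. The submitters' processing notes name cutadapt 2.3, STAR 2.7.8a and RSEM 1.3.3, without saying which step or build each served. For ChIP-Seq the authors mapped reads to GRCm38 with bowtie2 (2.3.4.1 in the notes) and peaks were called by them with MACS2 (q of 0.01), with the genome size preset for human. The deposited peak lists give for each peak the fold enrichment as a ratio over local background and −log10 q, both made by the authors and used here as deposited. Which library served as MACS2 control is not given in the sources used here. Libraries made with IgG were not used here.

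The groups were compared in limma 3.58.1 (R 4.3.3), using lmFit and a trended eBayes on log2(TPM + 0.1), for the 15668 genes whose TPM averaged 0.5 or more over the 6 aortas, without covariates, with Benjamini-Hochberg adjustment over all genes tested and a threshold of 0.05. TPM are not counts, so no count test or counting interval was used. The procedure was tested on simulated data. Peaks were assigned to genes with the curated RefSeq annotation of GRCm38, a promoter peak being centred within 2 kb of a transcription start. Motifs were matched on both strands in RefSeq promoters and in peaks. Python 3.11.15, pandas 2.3.3, numpy 2.4.6, pysam 0.24.0, samtools 1.23.1 and matplotlib 3.10.9 were used.

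The members and the gene lists were chosen with earlier results of these data known. Named genes are the 10 members, *Prdm16*, each listed gene that passed the test or, in lists where none did, the gene with the largest fall and the largest rise among those averaging 1 TPM or more, and the 5 genes most like the average of the members. A gene that this rule names is not reported here. *Srf* and the marker genes named were chosen after their values were seen. Results were recomputed with a pseudocount of 1 or 0.01, with a filter at a mean TPM of 1 and with none, after median-ratio rescaling or quantile normalization, with an untrended eBayes, with a block for the replicate number, without each aorta in turn, and with other promoter windows, the summit in place of the centre, stricter q and a larger overlap with vector peaks. GENCODE vM21 starts were added after the data were seen.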

Additional observations from a re-analysis of the deposited data

How the results depend on the processing

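No member was called by limma in 13 of the 15 settings, and 1, *Fosl2*, was called after median-ratio rescaling and after quantile normalization. The sign of the log2 fold change reversed for *Fosb* without Control replicate 3 (−0.19) and without Prdm16SMKO replicate 2 (−0.19), for *Egr1* without Control replicate 3 (−0.0129), for *Nab2* without Control replicate 2 (−0.0215) and without Prdm16SMKO replicate 2 (−0.0599), and for *Spry4* without Control replicate 1 (−0.0788), and for no other gene recomputed here. With 1 aorta left out, these 4 reached at most 0.375, 0.381, 0.0615 and 0.451. The cause was not tested. Over all genes 168 were called, 413 after median-ratio rescaling, 392 after quantile normalization, 110 without the filter, 48 without a trend and 91 to 141 with 1 aorta left out. Of the listed genes other than the members, 1 was called, 4 after median-ratio rescaling, 3 after quantile normalization, 2 with a mean TPM of at least 1, 0 without the filter, 0 without a trend and 0 to 2 with 1 aorta left out. Among the markers 0 were called, and 1 after median-ratio rescaling and 1 after quantile normalization. *Prdm16* passed after median-ratio rescaling (−0.73) and quantile normalization (−0.72), and its log2 fold change ran from −1.02 to −0.73 with 1 aorta left out, passing without Prdm16SMKO replicate 2 only.

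The labels do not say whether aortas with the same number form pairs. Deviations of same-numbered aortas from their group means had correlations of −0.0246, −0.07 and −0.00896 over genes. Such correlations over all genes cannot exclude pairs that matter for some genes. With the number as a replicate block, 184 genes were called in place of 168, 2 listed genes in place of 1, the other being *Edn1* (adjusted p = 0.0146, limma), and 0 members. The number of members with a promoter peak was 8, with 5 in a 1 kb window, 9 in a 5 kb window, 3 from 1 kb upstream to 100 bp downstream, 8 by summit, 8 at a q of at most 0.001, 5 at 1e-05 and 9 with GENCODE vM21 starts. The share of all genes with a promoter peak was not computed under these other settings. No member peak overlapped a vector peak by 1 bp or by 50%, as was likely in any case with so short a vector list. With 3 aortas a group and 1 ChIP library a condition, and with depth unknown, a missed threshold does not show that a gene did not differ.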
